A study of Mus musculus with 6 samples.

Results

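The 10 genes described here belong to the integrated stress response and were followed through 6 RNA-seq libraries of mouse primitive macrophages: Atf4, Ddit3, Atf3, Trib3, Ppp1r15a, Chac1, Asns, Phgdh, Psat1 and Shmt2. They were taken by symbol from the deposited table of 55487 genes, where they fill 11 rows because Ddit3 has a further identifier that holds 0 counts in every library and was set aside. All 10 genes passed the filter on low counts and were tested. Primitive macrophages, the first macrophages of the embryo and the precursors of microglia, were grown from embryonic stem cells, which were either wild-type (3 libraries) or derived from Ts1Cje mice (3 libraries). The Ts1Cje mouse models Down syndrome through an additional copy of a distal stretch of chromosome 16, which holds none of the 10 genes. Cells of both genotypes were kept with LIF and serum replacement as stem cells and then received the same factors over 12 days: activin A, BMP-4, FGF2 and VEGF, and the cytokines M-CSF, IL-3 and SCF. The design text asks why Ts1Cje embryos have fewer microglia, so the comparison of genotypes addresses RNA levels in the precursors. It speaks of different cells of each genotype, but neither it nor the labels say whether the 3 lots of a genotype were different stem cell lines or repeated differentiations of 1 line. P-values for that reason reflect the spread among these libraries alone, and part of it may be technical.

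In the integrated stress response, kinases that sense amino acid shortage, unfolded proteins, double-stranded RNA or low heme phosphorylate the translation factor eIF2. General translation slows, while the mRNA of the transcription factor ATF4 is translated more, and ATF4 then switches on genes for amino acid synthesis, amino acid import and tRNA charging, and the genes of CHOP (Ddit3), Trib3 and Chac1. Because ATF4 is controlled mainly through translation, its mRNA level does not report its protein level; in macrophages the response is known from infection, nutrient shortage and stress of the endoplasmic reticulum.

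ATF4 binds, together with C/EBP proteins, to a composite site known as the C/EBP-ATF response element. Its core was searched as the 8 letters TGATGNAA on both strands of RefSeq promoter windows (GRCm38.p6), each 300 bases long, from 250 before to 50 after a transcript start. All 10 genes had a window. The core was found in 4 of them, Atf3, Chac1, Asns and Trib3, and in 4.51% of the 27025 genes with a window. The sequences below are printed because these 4 windows hold the core, and because Chac1, Asns and Trib3 are among the genes whose levels differed most between libraries. Each is written along its gene's strand, with the match in capitals, and for Atf3, Chac1 and Trib3 the capitals are the core's reverse complement. A match describes these letters and does not show binding.
Atf3: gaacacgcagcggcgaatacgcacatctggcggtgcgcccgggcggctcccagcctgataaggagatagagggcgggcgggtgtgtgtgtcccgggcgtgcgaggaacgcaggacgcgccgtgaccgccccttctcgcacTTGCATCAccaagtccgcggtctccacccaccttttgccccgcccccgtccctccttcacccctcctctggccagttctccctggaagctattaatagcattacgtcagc
Chac1: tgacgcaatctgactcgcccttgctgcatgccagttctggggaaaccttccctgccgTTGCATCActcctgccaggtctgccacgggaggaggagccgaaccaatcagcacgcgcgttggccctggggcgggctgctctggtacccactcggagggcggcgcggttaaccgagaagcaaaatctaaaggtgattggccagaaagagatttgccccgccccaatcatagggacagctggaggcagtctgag
Asns: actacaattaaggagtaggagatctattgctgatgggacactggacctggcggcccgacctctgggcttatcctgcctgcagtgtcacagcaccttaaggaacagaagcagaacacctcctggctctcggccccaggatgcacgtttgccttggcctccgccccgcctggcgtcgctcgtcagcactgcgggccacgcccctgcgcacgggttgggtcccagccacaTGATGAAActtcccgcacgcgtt
Trib3: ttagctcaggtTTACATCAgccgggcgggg
The Atf3 stretch is chr1:191183334-191183583 on the minus strand, with the match 110 bases before the start. The Chac1 stretch is chr2:119350992-119351241 on the plus strand, with the match 193 bases before the start, the farthest of the 4. In Asns (chr6:7693210-7693459, minus strand) the match lies 23 bases before the start. In Trib3 it lies 15 bases after the start, and the run shown is chr2:152344028-152344057 on the minus strand. Each start is the transcript start of the RefSeq window, which can differ from the end of the gene span given below. The Trib3 match (chr2:152344039-152344046) lies outside the span given for that gene. The matches of Asns (chr6:7693225-7693232) and Atf3 (chr1:191183436-191183443) lie inside theirs.

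The libraries held between 25484294 and 32658148 counts over genes, with 17586 to 18935 genes detected. Markers of macrophages were high in each library: the 10 listed genes, among them Lyz2 (mean 14158 TPM) and Cd68 (mean 6218 TPM), summed to between 18976 and 40757 TPM (counts scaled by gene length and library size). Pluripotency genes summed to at most 2.26 TPM and were listed at 0 in all wild-type libraries. Wild-type replicate 1 stood apart from the rest. In it 14.9% of tested genes lay more than 2-fold from their mean over the 6 libraries, against 6.10% to 8.15% in the others. It also had the highest sums of cardiomyocyte markers (46.7 TPM against 0.988 to 7.88) and epithelial markers (28.5 TPM against 0.358 to 15.3), and the highest mitochondrial share of counts (1.32% against 0.885% to 0.972%). Cell number and RNA per cell cannot be told apart in such bulk samples.

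None of the 10 genes differed between Ts1Cje and wild-type cells beyond the spread between libraries. With edgeR's quasi-likelihood test and Benjamini-Hochberg adjustment over 13821 genes, 0 of 10 passed an adjusted p of 0.05, and the lowest adjusted p was 0.823. The same test called 0.00724% of all genes, which is 1 gene, Dnah11, an axonemal dynein named here as the single gene called. At an unadjusted p under 0.05, 0 of 10 passed against 5.79% of all genes. DESeq2 called 0 of the 9 genes to which it gave an adjusted p (none was given for Trib3), against 0.406% of all genes. Wild-type and Ts1Cje values overlapped for all 10, where 12.1% of all genes did not overlap. The fold change had a negative sign for 9 of 10 genes (50.8% of all genes), and the median log2 fold change was -0.45 over the 10 and -0.01 over all genes. That sign rested on wild-type replicate 2: without it 7 of 10 were positive (49.1% of all genes) and the median was 0.13.

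The larger pattern lay within the wild-type libraries. Wild-type replicate 2 had the highest normalised count of the 6 libraries for 7 of 10 genes, against 16.2% of all genes. In 6 of 10 it was more than 2-fold above the mean of wild-type replicates 1 and 3, against 5.38% of all genes. Wild-type replicate 1 was the lowest of the 6 for 5 of 10, against 26% of all genes. The difference between the highest and lowest wild-type library had a median of 1.62 on the log2 scale over the 10 genes and 0.67 over all genes. Among Ts1Cje libraries the corresponding medians were 1.0 and 0.49. Macrophage markers in wild-type replicate 2 summed to 24168 TPM, inside the range of the other libraries, while epithelial and cardiomyocyte markers summed to 0.484 and 1.38 TPM. The sum of mast cell and megakaryocyte markers was highest there, at 772 TPM against 139 to 620 TPM elsewhere. Of it 771 TPM was Pf4, a platelet chemokine. The list as a whole did not follow: of its 3 tested genes, 1 was highest in wild-type replicate 2 and 2 in wild-type replicate 3. The mitochondrial share of wild-type replicate 2, 0.885%, was the lowest. The part of these values in the pattern was not tested.

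**Figure D1:**
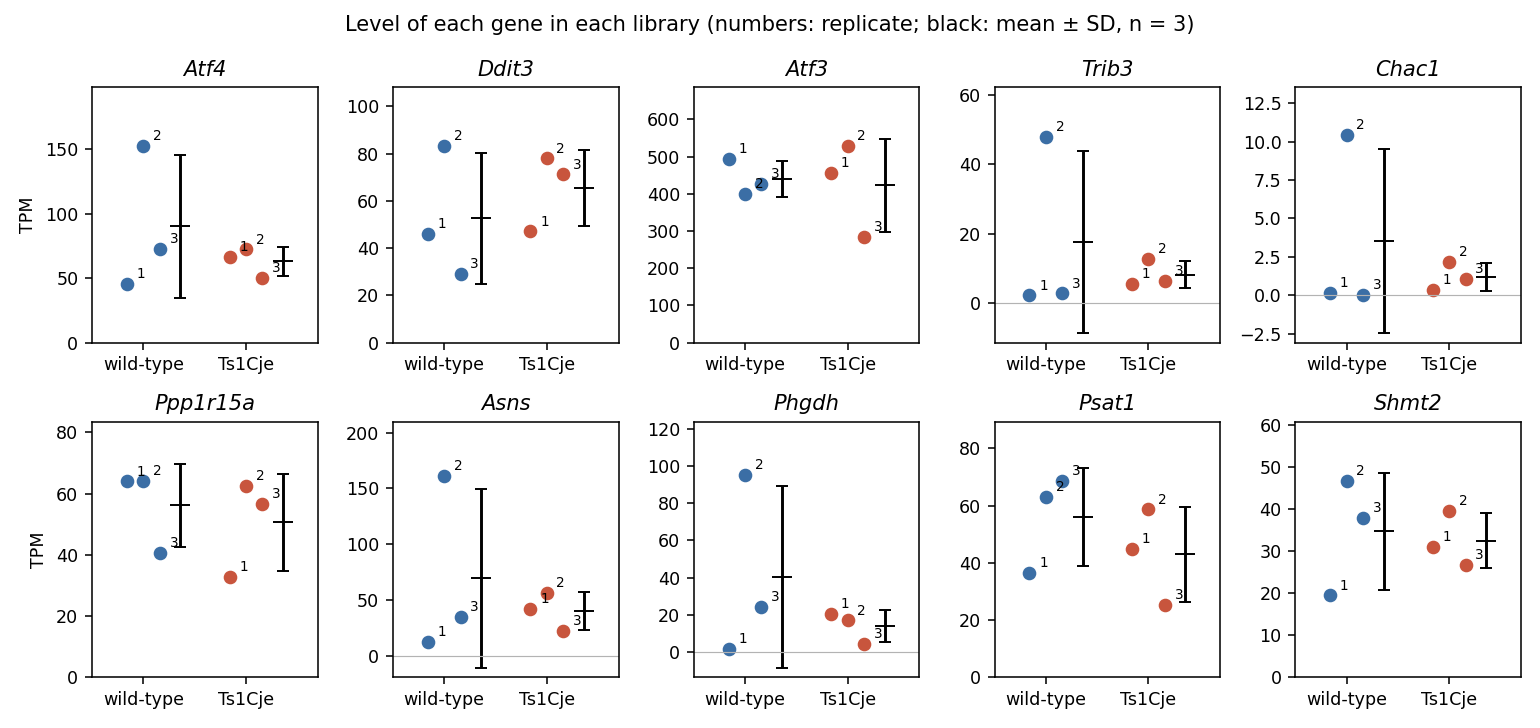
Level of each of the 10 genes in each library, in TPM on a linear axis, with 1 panel per gene. Points are libraries labelled by replicate number (blue, wild-type; red, Ts1Cje), and black bars are the mean ± SD of 3. In the panels of Atf4, Trib3, Chac1, Asns and Phgdh wild-type replicate 2 stands above the other 5 libraries, at 152, 47.9, 10.4, 161 and 95.2 TPM.

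Atf4 (chr15:80255184-80257541, plus strand, mm10) encodes the transcription factor at the centre of the response. In replicates 1, 2 and 3 its level was 45.5, 152 and 72.8 TPM for wild-type and 66.7, 72.4 and 50.4 TPM for Ts1Cje cells, and values below follow the same order. Wild-type replicate 2 alone was high, and all 3 Ts1Cje values lay between those of wild-type replicates 1 and 3. The means were 90.3 ± 55.6 TPM in wild-type and 63.2 ± 11.4 TPM in Ts1Cje cells (SD, n = 3 each). The log2 fold change, Ts1Cje over wild-type, was -0.51 ± 0.39 (SE; edgeR adjusted p = 0.827), and without wild-type replicate 2 it was 0.09 ± 0.24. In the opposite case, without wild-type replicate 1, it was -0.83 ± 0.30 with an adjusted p of 0.989 in edgeR.

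Ddit3 (chr10:127290774-127296288, plus strand) encodes CHOP, a factor downstream of ATF4 that is known for promoting cell death under lasting stress. Wild-type cells had 45.9, 83.1 and 29.0 TPM and Ts1Cje cells 47.1, 77.9 and 71.2 TPM. High and low libraries occurred in both genotypes, and Ddit3 was the 1 gene of the 10 with a positive log2 fold change, 0.32 ± 0.39 (SE; edgeR adjusted p = 0.882). Leaving out wild-type replicate 2 gave 0.80 ± 0.33, with an adjusted p of 0.975 in edgeR. The gene shares 68 bp with Mars1 on the other strand, and no source used here gives the strand setting of the counting, so reads from that stretch are uncertain.

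Atf3 (chr1:191170296-191218039, minus strand), a factor of the same bZIP class that is induced by many stresses and by immune signals, was the most abundant of the 10. It ranked 277 by mean TPM among all genes in the table. The 3 wild-type libraries had 495, 400 and 427 TPM and the 3 Ts1Cje libraries 457, 528 and 285 TPM. Atf3 did not share the peak of Atf4: wild-type replicate 2 was the lowest wild-type library, and Ts1Cje replicate 2 was the highest of all. The log2 fold change was -0.07 ± 0.21 (SE; edgeR adjusted p = 0.958).

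Trib3 (chr2:152337422-152344032, minus strand) encodes a pseudokinase that ATF4 and CHOP induce and that in turn restrains them. It had 2.11, 47.9 and 2.70 TPM in wild-type and 5.51, 12.7 and 6.23 TPM in Ts1Cje libraries. Wild-type replicate 2 was 19.8-fold above the mean of wild-type replicates 1 and 3 in normalised counts, and those replicates were the lowest of the 6. The mean was 17.6 ± 26.2 TPM in wild-type and 8.15 ± 3.96 TPM in Ts1Cje cells (SD, n = 3 each). The log2 fold change of -1.11 ± 1.10 (SE; edgeR adjusted p = 0.852) became 1.74 ± 0.50 without wild-type replicate 2, with an unadjusted p of 0.011 and an adjusted p of 0.975 in edgeR. Leaving out the highest library raised the fold change by itself, so that unadjusted p does not test the genotype.

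Ppp1r15a (chr7:45522916-45526268, minus strand) encodes GADD34, the phosphatase subunit that returns eIF2 to its active form and so ends the response. Wild-type libraries had 63.9, 64.1 and 40.5 TPM and Ts1Cje libraries 32.7, 62.5 and 56.6 TPM. Wild-type replicates 1 and 2 were level with each other, unlike for Trib3, and each genotype held 1 lower library. The log2 fold change was -0.14 ± 0.30 (SE; edgeR adjusted p = 0.935). It shares 717 bp with Tulp2 on the other strand, whose counts over the 6 libraries sum to 97 against 8709 for Ppp1r15a.

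Chac1 (chr2:119351229-119354381, plus strand) encodes an enzyme that breaks down glutathione. It was the least abundant of the 10 and varied most. The libraries held 2, 152 and 0 counts in wild-type and 6, 31 and 18 in Ts1Cje cells, or 0.144, 10.4 and 0 TPM against 0.335, 2.18 and 1.04 TPM. A count of 0 in wild-type replicate 3 allows up to 0.113 CPM (3 counts; CPM are counts scaled to library size). Wild-type replicate 2 was 146-fold above the pooled rate of wild-type replicates 1 and 3 (exact 95% interval from 39.7 to 1215, for counting error alone). The pooled rate is their summed counts over their summed normalised library sizes.

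The genotype difference of Chac1 took its sign from that library. With all libraries the log2 fold change was -1.57 ± 1.69 (SE; edgeR adjusted p = 0.865). Without wild-type replicate 2 it was 3.88 ± 1.596 (unadjusted p = 0.048, adjusted p = 0.975 in edgeR), a value that rests on the 2 wild-type counts that were left. Over those libraries the pooled ratio of Ts1Cje to wild-type cells was 15.7 (exact 95% interval 4.14 to 132.8, for counting error alone). Leaving out the wild-type library with 152 counts raised this ratio by itself. The interval covers reads and not the spread between libraries, so neither value tests the genotype.

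Asns (chr6:7675169-7693254, minus strand) encodes asparagine synthetase, a classic ATF4 target. It had 12.7, 161 and 34.9 TPM in wild-type libraries and 41.9, 56.4 and 22.3 TPM in Ts1Cje libraries. Wild-type replicate 2 was the highest and wild-type replicate 1 the lowest of the 6, with all Ts1Cje values between them. Means were 69.6 ± 80.1 and 40.2 ± 17.1 TPM (SD, n = 3 each), and the log2 fold change was -0.80 ± 0.80 (SE; edgeR adjusted p = 0.855). Omitting wild-type replicate 2 turned it to 0.74 ± 0.49.

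Phgdh, Psat1 and Shmt2 act in that order, though not all in consecutive steps, in the making of serine and glycine. Phgdh (chr3:98313170-98339990, minus strand), the first enzyme of serine synthesis, had 1.62, 95.2 and 24.2 TPM in wild-type and 20.4, 17.0 and 4.26 TPM in Ts1Cje libraries. The highest library exceeded the lowest 58.9-fold, and both were wild-type. Its log2 fold change was -1.56 ± 1.13 (SE; edgeR adjusted p = 0.823), and 0.09 ± 1.03 without wild-type replicate 2.

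Psat1 (chr19:15904678-15947337, minus strand), the aminotransferase of the next step, did not show this spread. It had 36.6, 63.0 and 68.7 TPM in wild-type and 44.8, 58.7 and 25.4 TPM in Ts1Cje libraries, so wild-type replicate 3 was the highest. The log2 fold change was -0.39 ± 0.31 (SE; edgeR adjusted p = 0.831). Levels of chromosome 19 as a whole also differed between libraries: over its 400 expressed genes the median distance from the mean of the 6 libraries on the log2 scale was -0.14, -0.00 and 0.28 in the wild-type and -0.19, 0.12 and -0.01 in the Ts1Cje libraries. Relative to the chromosome's median the fold change of Psat1 was -0.30 on the log2 scale.

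Shmt2 (chr10:127517123-127522444, minus strand), the mitochondrial enzyme that turns serine into glycine, had 19.5, 46.7 and 38.0 TPM in wild-type and 30.9, 39.6 and 26.8 TPM in Ts1Cje libraries. Its order of libraries began and ended like that of Asns, with wild-type replicate 2 highest and wild-type replicate 1 lowest. The log2 fold change was -0.09 ± 0.30 (SE; edgeR adjusted p = 0.962), and 0.17 ± 0.30 without wild-type replicate 2.

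**Figure D2:**
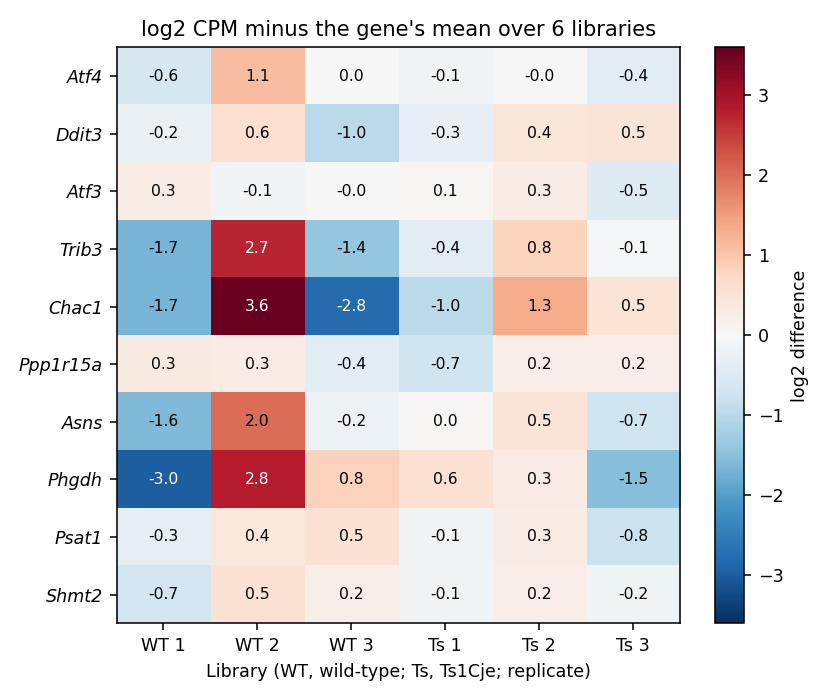
Each cell gives the log2 CPM of 1 gene in 1 library minus that gene's mean over the 6 libraries (red, above the mean; blue, below). Wild-type replicate 2 is the column with the highest values, from 3.57 for Chac1 to -0.09 for Atf3, and the rows of Atf3 and Ppp1r15a are the flattest across the wild-type libraries.

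The 10 genes thus fell along a range in wild-type replicate 2. Relative to the mean of wild-type replicates 1 and 3 its normalised count was 7.48-fold higher for Phgdh, 6.80-fold for Asns, 2.57-fold for Atf4 and 2.196-fold for Ddit3. It was 1.63-fold for Shmt2, 1.22-fold for Ppp1r15a, 1.20-fold for Psat1 and 0.862-fold for Atf3. Averaged over the 10 genes, the log2 distance from each gene's mean was -0.92, 1.40 and -0.42 in the wild-type libraries and -0.21, 0.43 and -0.29 in the Ts1Cje libraries. Ts1Cje replicate 2 was thus the next highest library after wild-type replicate 2. The 4 windows with the response element core belong to both ends of that range in wild-type replicate 2, Chac1, Trib3 and Asns at one and Atf3 at the other. Phgdh, whose window lacks the core, lay above Asns.

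**Figure D3:**
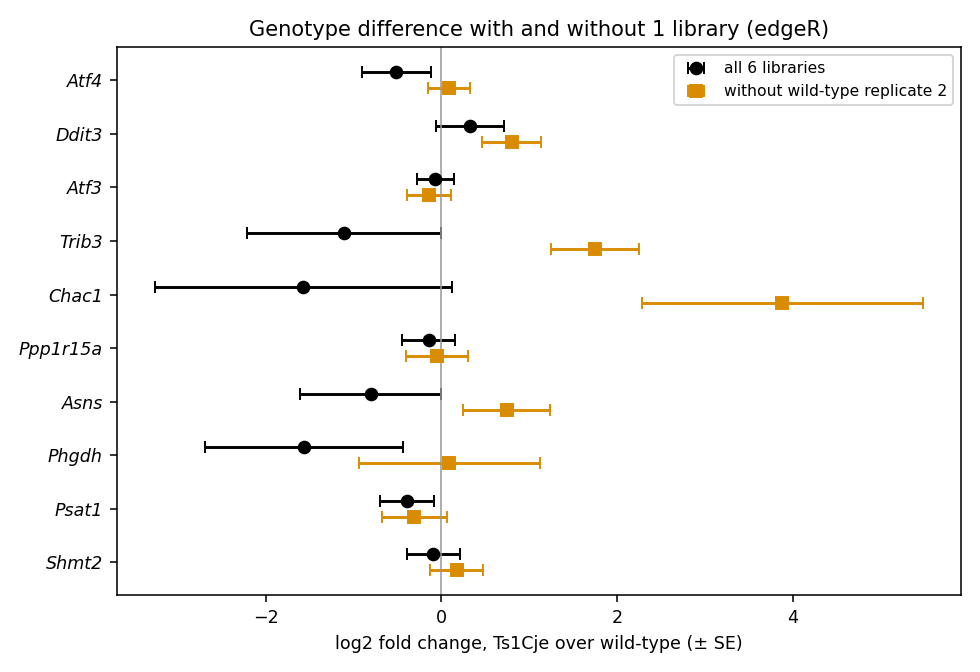
Log2 fold change of each gene, Ts1Cje over wild-type, with bars for the standard error from edgeR, over all 6 libraries (black circles) and without wild-type replicate 2 (orange squares). The sign differs between both fits for Atf4, Trib3, Chac1, Asns, Phgdh and Shmt2, and no adjusted p passes in either.

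Leaving out that library, edgeR called 0 of 10 genes at an adjusted p under 0.05, against 0.00689% of all genes. At an unadjusted p under 0.05 it passed 3 of 10, Ddit3, Trib3 and Chac1, all higher in Ts1Cje, against 3.72% of all genes. Leaving out wild-type replicate 1 in its place, 0 of 10 passed the adjusted threshold (0.00695% of all genes), 2 of 10 had a positive sign (49.7% of all genes), and 2 of 10, Atf4 and Phgdh, had an unadjusted p under 0.05 with the opposite sign, lower in Ts1Cje (4.78% of all genes). The direction of the genotype difference thus depended on which of these wild-type libraries was in the fit. Wild-type replicate 2 was the highest library for Ddit3, Trib3 and Chac1, and wild-type replicate 1 the lowest for Atf4 and Phgdh. Leaving out such a library moves the fold change and narrows the wild-type spread by itself. The shares with an unadjusted p under 0.05 are therefore not tests of the genotype.

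Upstream of ATF4, the list of eIF2 kinases, eIF2 and eIF2B subunits and phosphatase partners had medians near 0 in every library. Its median log2 distance from each gene's mean ran from -0.07 in wild-type replicate 1 to 0.08 in wild-type replicate 3. Single genes varied more. All 20 genes were tested, 0 were called in either direction, and the median log2 fold change was 0.05, or -0.01 without wild-type replicate 1. The kinase of the unfolded protein response, Eif2ak3 (PERK), had a log2 fold change of -0.35 ± 0.19 (SE), and Eif2s1, which holds the phosphorylated serine, 0.28 ± 0.17. In the list 2 genes had an unadjusted p under 0.05 with lower values in Ts1Cje (2.8% of all genes) and did not overlap between genotypes (5.72% of all genes lower without overlap). They were Eif2s3y, the Y-linked copy of an eIF2 subunit, at 76.3 ± 16.2 TPM in wild-type and 42.4 ± 9.36 TPM in Ts1Cje cells, and Ppp1r15b, the constitutive phosphatase partner, at 50.05 ± 1.10 and 37.5 ± 7.40 TPM (SD, n = 3 each). Both had an adjusted p of 0.792 in edgeR. Wild-type replicate 2 was the highest library for 3 of 20.

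Among 20 bZIP partners and regulators of ATF4, all tested, 0 were called. The median log2 fold change was -0.10, and ran from -0.18 (without Ts1Cje replicate 1) to -0.02 (without wild-type replicate 2) with 1 library left out. Fos, an immediate early gene, had 1504, 1255 and 449 TPM in wild-type and 371, 682 and 456 TPM in Ts1Cje libraries. Its partner Jun had 351, 287 and 133 TPM in wild-type and 155, 192 and 144 TPM in Ts1Cje libraries. Both were high in wild-type replicates 1 and 2, an order unlike that of Atf4. Cebpg, which pairs with ATF4, was highest in wild-type replicate 2 at 54.5 TPM, against 29.4 to 37.4 TPM elsewhere. Cebpb, another partner, had 2.59, 4.18 and 9.77 TPM in wild-type and 18.2, 13.7 and 6.98 TPM in Ts1Cje libraries, with a log2 fold change of 1.23 ± 0.54 (SE; edgeR adjusted p = 0.792).

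In the list of serine, glycine, proline, aspartate and one-carbon enzymes, 17 of 19 genes were tested, 0 were called, and the median log2 fold change was 0.03, or 0.26 without wild-type replicate 2 and -0.05 without wild-type replicate 1. Shmt1, the cytosolic counterpart of Shmt2, had 2.83, 3.30 and 7.06 TPM in wild-type and 7.54, 12.4 and 6.14 TPM in Ts1Cje libraries. It had an unadjusted p under 0.05 with higher values in Ts1Cje (2.99% of all genes) and an adjusted p of 0.792 in edgeR. Mthfd1, a cytosolic folate enzyme, had a log2 fold change of 0.25 ± 0.16 (SE) and Glul, glutamine synthetase, -0.36 ± 0.27.

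Of 14 amino acid transporters 12 were tested and 0 were called. Their median log2 fold change was -0.05, and 0.19 without wild-type replicate 2, with 9 of 12 positive. With another library left out it lay between -0.18 (without wild-type replicate 1) and 0.02 (without Ts1Cje replicate 3). Slc3a2, the shared heavy chain of several of them, was highest in wild-type replicate 2, at 329 TPM against 159 to 234 TPM elsewhere. Slc1a5, a glutamine carrier, was lowest in wild-type replicate 1 (13.0 TPM) and highest in Ts1Cje replicate 2 (28.7 TPM). Slc38a7, a lysosomal glutamine carrier, had a log2 fold change of 0.15 ± 0.17 (SE), and Slc7a3, an arginine carrier, was at or under 1.19 TPM in every library.

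Of the cytosolic tRNA synthetases all 20 were tested and 0 were called, with a median log2 fold change of -0.01, or 0.23 without wild-type replicate 2 and -0.15 without wild-type replicate 1. They followed the same libraries as the 10 genes: wild-type replicate 2 was highest for 12 of 20 and wild-type replicate 1 lowest for 14 of 20. Aars, for alanine, had 34.4, 73.5 and 52.9 TPM in wild-type and 56.9, 82.7 and 68.9 TPM in Ts1Cje libraries. Rars, for arginine, had a log2 fold change of 0.26 ± 0.15 (SE). Farsb, a subunit for phenylalanine, did not overlap between genotypes (6.38% of all genes were higher in Ts1Cje without overlap), at 111 ± 17.4 TPM in wild-type and 148 ± 16.3 TPM in Ts1Cje cells (SD, n = 3 each; edgeR adjusted p = 0.792). Nor did Qars, for glutamine, which was lower in Ts1Cje (5.72% of all genes were lower without overlap). Qars had 30.3 ± 1.22 TPM in wild-type and 26.9 ± 1.85 TPM in Ts1Cje cells (edgeR adjusted p = 0.822).

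Of 31 other ATF4 and CHOP targets, 28 were tested and 0 were called. Their median log2 fold change was -0.37, the nearest to that of the 10 genes, and was 0.20 without wild-type replicate 2, which was the highest library for 16 of 28. Without wild-type replicate 3 it was -0.59. The lowest p belonged to genes with another order. Txnip, an inhibitor of thioredoxin and glucose uptake, had 741, 592 and 129 TPM in wild-type and 169, 87.2 and 149 TPM in Ts1Cje libraries. Vegfa, a growth factor of blood vessels, had 10.98, 7.55 and 2.14 TPM in wild-type and 2.88, 2.04 and 2.14 TPM in Ts1Cje libraries. In both, as in Fos, wild-type replicates 1 and 2 were high and wild-type replicate 3 lay among the Ts1Cje values. Bcl2l11, which encodes the death protein BIM, had 35.5, 17.6 and 11.3 TPM in wild-type and 12.8, 8.74 and 7.501 TPM in Ts1Cje libraries, and Map1lc3b, an autophagy gene, a log2 fold change of 0.39 ± 0.17 (SE). All 4 had an adjusted p of 0.792 in edgeR.

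Glutathione enzymes beside Chac1 did not follow it. Of 10 listed 9 were tested and 0 were called, at a median log2 fold change of 0.36, and wild-type replicate 2 was the highest library for 0 of 9. The median was 0.10 without wild-type replicate 2, 0.13 without wild-type replicate 1 and 0.66 without wild-type replicate 3. Gclc, of the limiting step of glutathione synthesis, had 15.002, 22.6 and 43.6 TPM in wild-type and 32.6, 38.7 and 31.7 TPM in Ts1Cje libraries. Gsr, glutathione reductase, had 63.3, 119 and 214 TPM in wild-type and 182, 184 and 169 TPM in Ts1Cje libraries. In both, wild-type replicates 1 and 2 were the lowest of the 6. Gss, glutathione synthetase, had a log2 fold change of 0.52 ± 0.25 (SE), and Ggt5 was at or under 1.28 TPM in every library.

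**Figure D4:**
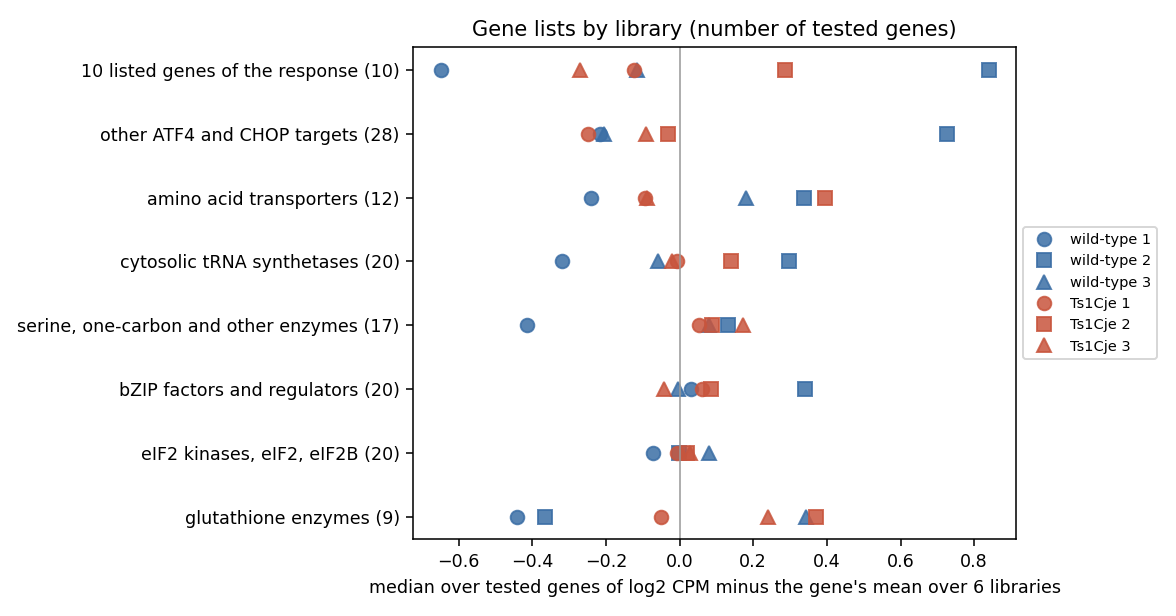
Median over the tested genes of each list of log2 CPM minus the gene's mean over 6 libraries, with 1 symbol per library (blue, wild-type; red, Ts1Cje; circle, square and triangle for replicates 1, 2 and 3). The blue square, wild-type replicate 2, lies at 0.84 for the 10 genes and 0.73 for the other ATF4 and CHOP targets, near 0 for the eIF2 list and at -0.36 for glutathione enzymes.

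The 4 genes outside the 10 whose pattern over the 6 libraries lay nearest to the mean pattern of the 10 were sought among 10788 expressed genes. Likeness was the root mean square of the log2 distances, whose median over those genes was 0.79. They were Nemp2, a nuclear envelope protein (0.22), Slc7a5, the carrier of large neutral amino acids (0.23), Dync2li1, a dynein chain of cilia (0.27), and Sesn2, which senses leucine and restrains mTORC1 (0.30). Slc7a5 had 2.65, 15.4 and 6.003 TPM in wild-type and 5.85, 11.1 and 4.49 TPM in Ts1Cje libraries. Sesn2 had 29.3, 74.7 and 32.0 TPM in wild-type and 34.1, 49.4 and 30.6 TPM in Ts1Cje libraries. In all 4, Nemp2 and Dync2li1 included, wild-type replicate 2 was highest and Ts1Cje replicate 2 next, as in the 10 genes on average. The search selected for that likeness. Sesn2 is also on the list of other ATF4 targets.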

How the data were processed

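Per the submitters' processing notes, reads were checked with FastQC (0.11.7), trimmed with Trimmomatic (0.38), aligned with HISAT2 (2.1.0) and counted with featureCounts (1.6.3), with mm10 as the build. Strand use and treatment of reads with several positions are not given in the sources used here. Per the labels' protocols, a SMART-seq kit made the libraries out of total RNA. The authors deposited 2 tables, raw counts and TPM per gene; TPM here are those counts scaled by gene length to an equal sum per library. For all 11102 genes with at least 20 counts in every library, the ratio of counts to TPM was constant over libraries to within 1%. For this the ratios of each library were first divided by their median in that library. Of 55487 identifiers 54784 had identical coordinates in GENCODE M21.

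Counts were tested with edgeR 4.0.16 (R 4.3.3): genes kept by filterByExpr (count minimum 10, total minimum 15), TMM factors, genotype as the only term and the quasi-likelihood test, with Benjamini-Hochberg adjustment over 13821 genes. The standard error is the size of the log2 fold change divided by the root of F. Log2 CPM use a prior count of 2. TPM describe levels. Only genes whose mean log2 CPM exceeded 1 entered the search for nearest genes and the medians by chromosome. Alternatives were RLE factors, no filter, a stricter filter (CPM of at least 1 in 3 libraries), DESeq2 1.42.0, limma 3.58.1 on log2(TPM + 1) and log2(TPM + 0.1) with or without a mean TPM of at least 1, a block for the replicate number, and leaving out each library. The fit was also tested on simulated data with known changes. The submitters' tools include no named step that removes PCR copies by molecular identifiers. Reads can therefore not be taken as independent molecules, and intervals cover counting error only.

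The members and gene lists were chosen with earlier results of these data known. The text names the 10 genes, up to 4 tested genes of each list with the smallest unadjusted p, the 4 nearest genes, and up to 2 genes of the marker lists it describes; 1 gene that this rule names is not reported here, and where another gene appears, it was picked with its values in view. Marker lists covered macrophages, pluripotent, erythroid, mast cell and megakaryocyte, neutrophil, endothelial, mesenchymal, epithelial and cardiomyocyte cells. Over the 6 libraries the summed markers not given elsewhere were 0.635 to 27.1 TPM for erythroid cells, 0.398 to 2.12 TPM for neutrophils, 5.14 to 20.4 TPM for endothelium and 5.99 to 30.2 TPM for mesenchyme. Mars is listed as Mars1 in the table, and Cebpb, Atf5, Mthfd2 and Slc7a11 stand in more than 1 list.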

Additional observations from a re-analysis of the deposited data

How the results depend on the processing

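The count of the 10 genes past the threshold was 0 under all 14 alternatives. Over all genes the count was 1, and it was 3 with no filter, 56 with DESeq2, 4 with limma on log2(TPM + 0.1), 0 with the replicate block, and 1 to 6 with a library left out, the 6 without wild-type replicate 3. The median log2 fold change of the 10 genes, -0.45, ran from -0.73 (without wild-type replicate 1) to 0.13 (without wild-type replicate 2), and was -0.13 with the replicate block. Of 140 fold changes of single genes 125 kept their sign. These include, beside the alternatives, that of Psat1 relative to the median of chromosome 19. Trib3 turned to 0.065 with limma on log2(TPM + 1), with or without a minimum, to 0.20 with limma on log2(TPM + 0.1) and to 0.27 with the replicate block. Chac1 turned to 0.71 both with limma on log2(TPM + 0.1) and with the block; it was not tested under the stricter filter. With a library left out the fold changes ran from -0.83 to 0.087 for Atf4, -0.23 to 0.11 for Atf3, -1.64 to 1.74 for Trib3, -2.27 to 3.88 for Chac1, -1.30 to 0.74 for Asns, -0.34 to 0.11 for Ppp1r15a, -2.13 to 0.090 for Phgdh and -0.38 to 0.17 for Shmt2. Atf3 changed sign without wild-type replicate 1 (0.03) or Ts1Cje replicate 3 (0.11), and Ppp1r15a without Ts1Cje replicate 1 (0.11). The eIF2 list median was -0.01 without wild-type replicate 1. With the replicate block the median of the transporters was 0.11 and that of other ATF4 and CHOP targets -0.15. Lots with the same number did not deviate together (correlation across genes -0.18, -0.05 and -0.06) and were fitted as unpaired. Pairs of lots with different numbers lay between -0.11 and 0.17. With 3 libraries per genotype these values cannot show whether lots with the same number shared a batch. Wild-type libraries ranged over more than 2-fold for 7 of 10 genes (33.1% of all genes), and the standard error of the log2 fold change reached 1.13 for Phgdh and 1.69 for Chac1, so genotype differences of that size were not detectable in them. Chac1, with 209 counts in all, is the gene most limited by depth.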

Other observations

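The genes in this paragraph are outside the naming rule and were chosen after their values were seen, for their level in wild-type replicate 2. Mthfd2, the mitochondrial folate enzyme beside Shmt2, had 3.97, 66.0 and 20.4 TPM in wild-type replicates 1 to 3 and 23.9, 32.1 and 12.3 TPM in Ts1Cje replicates 1 to 3. Aldh18a1, of proline synthesis, had 6.65, 45.0 and 21.4 TPM in wild-type and 17.0, 17.7 and 9.77 TPM in Ts1Cje libraries. Both had wild-type replicate 2 highest and wild-type replicate 1 lowest, the order of Asns and Phgdh at its ends. Nupr1, a stress-induced chromatin protein, had 5.78, 40.7 and 4.47 TPM in wild-type and 5.06, 6.72 and 4.55 TPM in Ts1Cje libraries, so wild-type replicate 2 alone was high. Among arginine and neutral amino acid carriers, Slc7a1 had 1.72, 11.04 and 5.41 TPM in wild-type and 5.37, 7.15 and 2.53 TPM in Ts1Cje libraries, and Slc1a4 was listed at 0 in wild-type replicate 1 and at 6.58 TPM in wild-type replicate 2. Other targets did not share the order: Gdf15, a stress cytokine, was highest in Ts1Cje replicate 2 (272 TPM, against 142 TPM in wild-type replicate 2), and Slc7a11, the cystine carrier, was lowest in wild-type replicate 2 (0.210 TPM) and at or under 0.898 TPM in every library.

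The response element core TGATGNAA was also counted in the promoter windows of the gene lists. It was present in 5 of 13 cytosolic tRNA synthetases with a window (Aars, Gars, Iars, Tars and Yars) and 3 of 10 amino acid transporters. Among other ATF4 and CHOP targets it was in 5 of 25, and in the eIF2 list in 1 of 16. The enzymes of serine, glycine, proline, aspartate and one-carbon metabolism held it in 2 of 14 genes. The bZIP list held it in 1 of 15 and the glutathione list in 1 of 6. Of all genes with a window 4.51% held it. These counts describe letters in the windows, and some genes are in more than 1 list.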
